A study of Homo sapiens with 9 samples.

Results

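The 9 genes described here belong to the E2F and retinoblastoma system and were followed in SET2 cells with and without *DYRK1A*, and *E2F7* stood out among them, rising 3.48-fold in clone 11H1 and 2.82-fold in clone 14B5. The genes were picked by symbol from the deposited count table, 9 of 60662 genes, and comprise the activator E2Fs *E2F1*, *E2F2* and *E2F3*, the repressor *E2F6*, the atypical *E2F7* and *E2F8*, the pocket protein gene *RB1*, and *TFDP1* and *TFDP2*, which encode the DP partners of E2Fs. All 9 were expressed above the filter on low counts in every comparison.

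E2F proteins are transcription factors that switch on the genes for DNA replication as cells pass from G1 into S phase. E2F1, E2F2 and E2F3 bind DNA as dimers with a DP protein and are held inactive by the retinoblastoma protein until cyclin-dependent kinases phosphorylate it, whereas E2F7 and E2F8 bind without a DP partner and repress the same class of genes later in S phase. DYRK1A is a kinase that phosphorylates LIN52 and so promotes assembly of DREAM, a repressor complex that carries the pocket proteins p107 or p130 with E2F4 or E2F5, and that silences many E2F-regulated genes in resting cells.

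SET2 is a *JAK2* mutant megakaryoblastic line derived from a leukemia that followed a myeloproliferative neoplasm. Untreated cells were sequenced in bulk in 3 groups, namely WT cells and a pair of cell clones with *DYRK1A* knocked out (KO), called 11H1 and 14B5, at n = 3 libraries a group. A clone was grown from 1 sorted cell after nucleofection of Cas9 ribonucleoprotein together with a GFP plasmid, and was kept because it carried only out-of-frame indels. No clone from an unedited cell was sequenced, so an effect of *DYRK1A* loss and a feature of the founder cell cannot be told apart, and libraries of a clone are replicates of that clone only. The labels do not say whether the libraries came from separate cultures, so the p values measure the spread between these libraries.

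Libraries held between 32347779 and 60272245 expected counts. Levels are in CPM, each gene's counts relative to the library's total after TMM scaling, and fold changes are edgeR quasi-likelihood estimates with Benjamini–Hochberg adjusted *P* values (*P*adj) over all genes tested. The targeted gene *DYRK1A* had a mean of 204 CPM in WT, 190.4 CPM in 11H1 and 183 CPM in 14B5, and its fall was called in 14B5 (log2FC −0.17, edgeR *P*adj = 0.0278) and not in 11H1 (log2FC −0.09, edgeR *P*adj = 0.131). These values are of RNA, whereas the paper checked the loss of DYRK1A protein in its HEL and SET2 lines by western blot. The share of counts on mitochondrially encoded genes was 3.54% to 6.03% in WT (WT library 1 the highest), with 7.23% to 7.39% for 11H1 and 3.30% to 3.92% for 14B5. Leaving these genes out moved no log2FC of the 9 genes by more than 0.0051. Of 8 megakaryocyte and erythroid markers, 6 were above 50 CPM in every library, among them *GATA1* and *ITGA2B*, while *GP9* ranged from 0.574 to 24.4 CPM and *PF4* from 0 to 0.559 CPM. The 8 summed to 2091 to 2135 CPM in WT and to less in every clone library, 1786 to 1885 CPM in 11H1 and 1840 to 1891 CPM in 14B5. The largest part of this sum was *ITGA2B*, at 593 to 927 CPM over all libraries, whereas *GFI1B* ranged from 193 to 214 CPM. The sum therefore does not give the direction of each marker. The 8 markers of T cells, B cells, monocytes and fibroblasts summed to 1.56 to 2.18 CPM in WT, 4.26 to 6.45 CPM in 11H1 and 0.870 to 0.948 CPM in 14B5, and 5 of the 8 were at 0 in at least 1 library. The part of either sum in the results was not tested. In bulk RNA, a change in the share of cycling cells and a change in RNA per cell cannot be told apart.

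The 9 genes differed widely in level. On the scale of CPM per kb of merged exons, which allows levels to be compared between genes, WT cells ran from *TFDP1* at 28.6 ± 0.602 (SD, n = 3) to *E2F7* at 0.607 ± 0.0759 (SD, n = 3). Between them came *E2F3* at 19.8, *E2F1* at 18.9, *RB1* at 16.9, *E2F6* at 15.6, *TFDP2* at 15.0, *E2F2* at 7.67 and *E2F8* at 7.37 CPM per kb. In WT, libraries of *E2F3* and *E2F1*, of *E2F1* and *RB1*, of *RB1* and *E2F6*, and of *E2F2* and *E2F8* overlapped, so these neighbours in the order were not separated beyond their spread, whereas *TFDP1* lay above and *E2F7* below every other gene in each library. *TFDP1* also led in 11H1 at 26.6 and in 14B5 at 34.5 CPM per kb, and *E2F7* stayed last at 2.09 and 1.72 CPM per kb. The order of *E2F2* and *E2F8* was reversed in 14B5, where *E2F8* reached 11.8 and *E2F2* 9.26 CPM per kb with no overlap of libraries. With the length of the longest transcript in place of merged exons, *E2F8* moved above *E2F2* in WT and *E2F3* above *TFDP1* in 11H1.

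**Figure D1:**
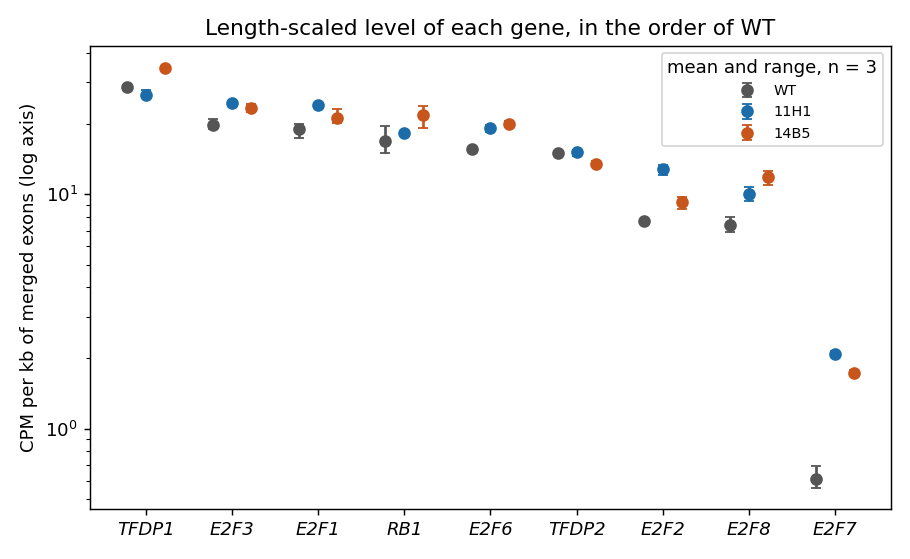
Level of each gene in CPM per kb of merged exons (log axis), in the order of the WT means. Points are means of 3 libraries and bars span the lowest to the highest library. *TFDP1* is highest and *E2F7* lowest in all 3 groups, and *E2F7* is the gene whose KO points sit farthest from its WT point.

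In 11H1, 6 of the 9 genes passed an adjusted *P* of 0.05 against WT and all 6 were higher, against 31.8% of all 16675 genes tested that were called higher and 64.6% called in either direction. In 14B5, 8 of 9 passed, 7 higher and 1 lower, against 24.9% called higher, 28.7% called lower and 53.5% called in either direction among 16537 genes. Every library of the clone lay on 1 side of WT for 7 genes in 11H1 and 8 in 14B5, where 68.7% and 60.9% of all genes did not overlap. The median log2FC of the 9 genes was 0.32 in 11H1 and 0.26 in 14B5, and that of all genes −0.01 in both. Both comparisons use the same WT libraries, so a WT library that stands apart moves them together. *E2F2*, *E2F3*, *E2F6*, *E2F7* and *E2F8* were called higher in both clones, as were 14.1% of the 16339 genes tested in both.

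**Figure D2:**
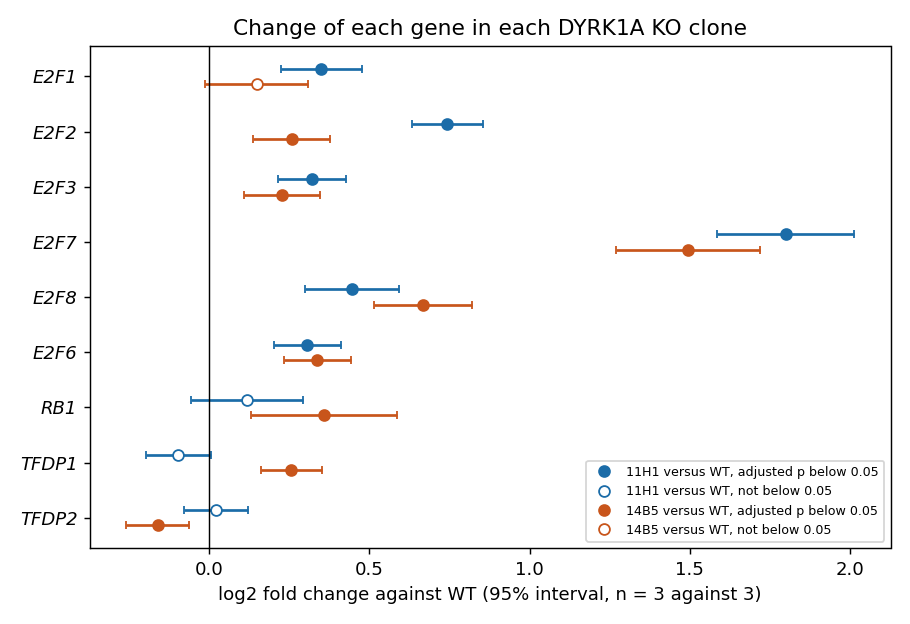
log2 fold change of each gene in 11H1 (blue) and 14B5 (orange) against WT, with the 95% interval (n = 3 libraries against 3). Filled points have an edgeR *P*adj below 0.05. *E2F7* lies farthest from 0 at 1.80 and 1.49, and *TFDP1* and *TFDP2* have no shared direction in the clones.

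*E2F1*, *E2F2* and *E2F3* were all called higher in 11H1, and *E2F2* and *E2F3* in 14B5. Their promoters are shown because the letters of the E2F site lie just before the start in each, on the RefSeq build GRCh38.p14, from 250 bases before to 50 bases after the annotated start and read in the direction of the gene. The windows are chr20:33686336-33686635 on the minus strand for *E2F1*, chr1:23531184-23531483 on the minus strand for *E2F2* and chr6:20401629-20401928 on the plus strand for the longer *E2F3* transcript. Capitals mark matches to TTTCCCGC, TTTCGCGC, TTTGCCGC or TTTGGCGC on either strand, a set of letters chosen after the windows had been seen.
E2F1: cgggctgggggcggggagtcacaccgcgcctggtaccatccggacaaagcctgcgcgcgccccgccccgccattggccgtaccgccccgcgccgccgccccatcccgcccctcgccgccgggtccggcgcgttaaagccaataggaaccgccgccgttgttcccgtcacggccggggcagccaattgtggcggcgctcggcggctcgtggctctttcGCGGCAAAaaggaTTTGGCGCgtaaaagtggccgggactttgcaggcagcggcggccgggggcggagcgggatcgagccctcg
E2F2: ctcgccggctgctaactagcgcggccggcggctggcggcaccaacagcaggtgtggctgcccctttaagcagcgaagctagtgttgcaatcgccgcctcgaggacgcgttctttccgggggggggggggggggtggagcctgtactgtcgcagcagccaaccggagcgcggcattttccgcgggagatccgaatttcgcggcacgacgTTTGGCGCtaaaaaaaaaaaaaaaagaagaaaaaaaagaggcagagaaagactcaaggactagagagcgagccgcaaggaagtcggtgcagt
E2F3: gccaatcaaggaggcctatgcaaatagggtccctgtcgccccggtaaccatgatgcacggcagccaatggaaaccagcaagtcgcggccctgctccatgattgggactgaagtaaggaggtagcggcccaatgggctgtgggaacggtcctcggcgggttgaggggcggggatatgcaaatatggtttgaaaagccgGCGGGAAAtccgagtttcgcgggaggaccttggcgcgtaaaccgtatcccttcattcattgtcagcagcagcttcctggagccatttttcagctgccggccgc
*E2F1* held TTTGCCGC on the opposite strand 33 bases before the start and TTTGGCGC on its own strand 20 bases before. *E2F2* held TTTGGCGC 42 bases before the start, and *E2F3* held TTTCCCGC on the opposite strand 53 bases before. *TFDP1* also held a match, TTTCGCGC on the opposite strand 120 bases before the start. The second *E2F3* window and the windows of *E2F6*, *E2F7*, *TFDP2* and an internal start of *RB1* held none. Among all 35116 RefSeq windows of this length, 3.31% held 1 of these letter runs. The windows printed here were picked because they held a match, so that share is no test of them. A match of letters is no evidence of binding.

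*E2F1*, the founding member of the family and a driver of S phase entry, had 50.2, 48.5 and 43.5 CPM in WT libraries 1 to 3. It had 60.1, 61.5 and 59.0 CPM in 11H1 and 51.2, 50.2 and 58.0 CPM in 14B5. Every KO library was above every WT library, although the lowest 14B5 library cleared the highest WT library by less than 0.1 CPM. The rise was 1.27-fold in 11H1 (log2FC 0.35, 95% interval 0.22 to 0.48, edgeR *P*adj = 2.190e-04). In 14B5 the log2FC was 0.15 with an interval of −0.01 to 0.31, which did not pass (edgeR *P*adj = 0.109). That value passed when no filter on low counts was used (edgeR *P*adj = 0.0222) and in a fit of all 3 groups (edgeR *P*adj = 0.0438), and fell to 0.09 without 14B5 library 3 (edgeR *P*adj = 0.336).

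*E2F2*, an activator that is prominent in blood-forming cells, had 39.8, 40.3 and 39.3 CPM in WT. It reached 66.9, 69.1 and 62.8 CPM in 11H1 and 45.0, 50.7 and 48.5 CPM in 14B5. The 3 groups were fully separated, with 14B5 between WT and 11H1. The rise was 1.67-fold in 11H1 (log2FC 0.74, SE 0.05, edgeR *P*adj = 1.385e-07) and 1.20-fold in 14B5 (log2FC 0.26, SE 0.05, edgeR *P*adj = 0.00256). *E2F2* therefore went from 0.793 to 0.903 counts per count of *E2F1* in WT to 1.07 to 1.13 in 11H1, while 14B5 at 0.836 to 1.01 overlapped WT.

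*E2F3*, the activator with the most reads here, had 99.8, 97.9 and 108 CPM in WT. The clones had 126, 129 and 126 CPM in 11H1 and 125, 120.3 and 116 CPM in 14B5. Both clones were above WT in every library and close to each other. The rise was 1.25-fold in 11H1 (log2FC 0.32, SE 0.05, edgeR *P*adj = 1.094e-04) and 1.17-fold in 14B5 (log2FC 0.23, SE 0.05, edgeR *P*adj = 0.00504). The locus makes a longer and a shorter protein from separate starts, and the gene-level counts do not divide them.

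**Figure D3:**
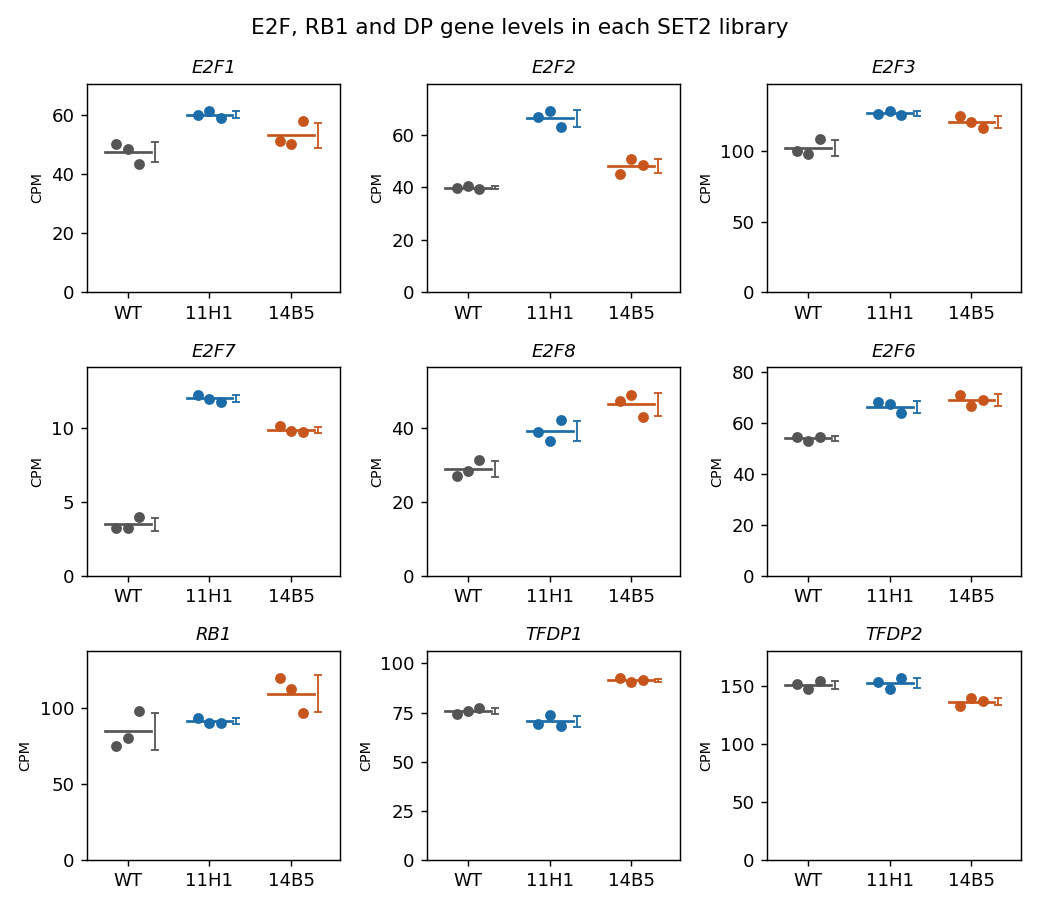
CPM of each gene in each library (points), with the mean of 3 libraries (line) and the SD (bar), for WT (grey), 11H1 (blue) and 14B5 (orange), with every axis starting at 0. *E2F7* and *E2F8* rise in both clones, *E2F7* more in 11H1 and *E2F8* more in 14B5. *E2F2* rises more in 11H1, and *RB1* spreads widely within WT and 14B5.

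The atypical E2Fs rose in both clones, and *E2F7* changed more than any other of the 9 genes. *E2F7*, a repressor that acts against the activator E2Fs in a feedback loop, had 3.21, 3.25 and 3.99 CPM in WT, from 155 to 164 counts a library. It had 12.3, 12.0 and 11.8 CPM in 11H1 and 10.1, 9.80 and 9.74 CPM in 14B5. The groups did not overlap, and 11H1 was above 14B5 in every library. The log2FC was 1.80 in 11H1 (95% interval 1.59 to 2.01, edgeR *P*adj = 2.253e-08) and 1.49 in 14B5 (95% interval 1.27 to 1.72, edgeR *P*adj = 1.109e-06). By size of change, 5.07% of the genes tested in 11H1 and 7.93% in 14B5 had a log2FC farther from 0. The promoter window of *E2F7*, chr12:77065520-77065819 on the minus strand of GRCh38.p14, is given because this gene changed most. It holds none of the 4 E2F letter runs, which says nothing of E2F binding there.
E2F7: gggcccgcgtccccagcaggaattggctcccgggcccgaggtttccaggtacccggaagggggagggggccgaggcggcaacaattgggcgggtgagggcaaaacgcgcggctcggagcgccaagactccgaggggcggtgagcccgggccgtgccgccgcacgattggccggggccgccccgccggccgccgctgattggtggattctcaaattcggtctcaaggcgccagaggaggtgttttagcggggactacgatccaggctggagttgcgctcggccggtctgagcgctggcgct

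*E2F8*, the close relative of *E2F7* with which it forms dimers, had 27.0, 28.5 and 31.3 CPM in WT. It had 38.9, 36.6 and 42.1 CPM in 11H1 and 47.2, 49.0 and 43.0 CPM in 14B5. WT was below both clones in every library, and 11H1 was below 14B5. The rise was 1.36-fold in 11H1 (log2FC 0.45, SE 0.07, edgeR *P*adj = 1.067e-04) and 1.59-fold in 14B5 (log2FC 0.67, SE 0.07, edgeR *P*adj = 2.313e-05). No promoter window of *E2F8* was used.

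The balance within the family differed between groups. Counts of *E2F7* per count of *E2F8* were 0.114 to 0.127 in WT, 0.280 to 0.328 in 11H1 and 0.200 to 0.226 in 14B5, with no overlap. Summed counts of *E2F7* and *E2F8* per 100 counts of *E2F1*, *E2F2* and *E2F3* were 15.9, 17.0 and 18.5 in WT, 20.2, 18.8 and 21.8 in 11H1, and 25.9, 26.6 and 23.7 in 14B5. Each clone lay above WT, and 14B5 above 11H1, in every library. These ratios are of reads, not of molecules, since the genes differ in length.

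*E2F6*, which lacks the domain that binds pocket proteins and represses genes within the polycomb complex PRC1.6, rose to a similar extent in both clones. It had 54.6, 53.0 and 54.3 CPM in WT, 68.0, 67.4 and 63.7 CPM in 11H1 and 71.1, 66.5 and 69.2 CPM in 14B5. WT did not overlap with either clone, and the clones overlapped with each other. The log2FC was 0.31 in 11H1 (SE 0.05, edgeR *P*adj = 1.263e-04) and 0.34 in 14B5 (SE 0.05, edgeR *P*adj = 1.852e-04). Alone among the 9 genes, *E2F6* had counts that were not whole in 8 of 9 libraries, since RSEM divides reads shared with near-identical copies. The processed pseudogene *E2F6P1* was listed at 51.4 to 118 counts a library, against at least 2096 for *E2F6*.

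Of 12 genes that encode PRC1.6 partners of E2F6, 5 were higher and 3 lower in 11H1, and 4 were higher and 1 lower in 14B5, so that 8 and 5 of 12 were called, beside 64.6% and 53.5% of all genes. Their median log2FC was −0.02 in 11H1 and 0.10 in 14B5, beside −0.01 for all genes tested in each. *RING1*, a ubiquitin ligase subunit of polycomb complexes (log2FC 0.43 and 0.47), and *WDR5*, a scaffold shared by several chromatin complexes (0.18 and 0.28), were the pair called higher in both clones. Of 12 listed germline genes that E2F6 and PRC1.6 keep silent in body cells, 3 passed the filter on low counts, and *DDX4*, *TEX101*, *MEIOB* and *TUBA3C* had no counts in any library, which allows up to 0.0913 CPM in the smallest. In 11H1 the 3 tested, *STAG3*, *TDRKH* and *SYCE2*, had log2FC of 0.11, −0.14 and −0.09 with edgeR *P*adj of at least 0.104. *TDRKH* was not silent in these cells, with means of 26.0 CPM in WT, 23.3 CPM in 11H1 and 26.0 CPM in 14B5. *STAG3*, a meiotic cohesin gene, fell by 1.24 on the log2 scale in 14B5 (SE 0.25, edgeR *P*adj = 0.00218), from a mean of 0.710 CPM in WT to 0.298 CPM.

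*RB1*, which encodes the retinoblastoma protein and restrains the activator E2Fs, varied too much within WT and 14B5 for a firm call against WT. It had 75.1, 80.3 and 98.0 CPM in WT, 93.3, 90.1 and 89.9 CPM in 11H1 and 119, 113 and 96.2 CPM in 14B5. WT library 3 exceeded every 11H1 library and 1 library of 14B5, so WT overlapped with each clone. The log2FC was 0.12 in 11H1 (95% interval −0.06 to 0.29, edgeR *P*adj = 0.214) and 0.36 in 14B5 (95% interval 0.13 to 0.59, edgeR *P*adj = 0.0140). Without WT library 3 the value in 11H1 was 0.23 and passed (edgeR *P*adj = 7.247e-04), and without WT library 1 it was 0.03 (edgeR *P*adj = 0.713). The call in 14B5 was lost without WT library 2 (edgeR *P*adj = 0.0634) or without 14B5 library 1 (edgeR *P*adj = 0.0552).

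In GENCODE v29 on GRCh38, *RB1* spans chr13:48303726-48599436 on the plus strand, and *LPAR6*, a lysophosphatidic acid receptor gene, lies within that extent on the opposite strand. *LPAR6* fell by 0.93 on the log2 scale in 11H1 and by 1.33 in 14B5. *RCBTB2*, which this annotation also places inside the *RB1* extent on the opposite strand, had a log2FC of 0.09 in 11H1 and fell by 0.82 in 14B5. Whether counting used strand is not given in the sources used here, and *LPAR6* held at most 718 and *RCBTB2* at most 1147 counts in a library, against at least 2956 for *RB1*.

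Most listed genes around *RB1* on 13q14 were lower in the clones. Of 17 tested, 12 were lower and 1 higher in 11H1, against 32.8% of all genes called lower and 31.8% called higher. In 14B5, 10 were lower and 4 higher, against 28.7% called lower and 24.9% called higher. The median log2FC of the 17 was −0.44 in 11H1 and −0.27 in 14B5, beside −0.01 for all genes tested in each. *ITM2B*, the expressed neighbour 33369 bases before *RB1*, fell by 0.70 in 11H1 and by 0.31 in 14B5 on the log2 scale (edgeR *P*adj = 1.180e-07 and 6.134e-04). *ARL11*, a GTPase gene, fell by 2.41 in 11H1 and by 0.95 in 14B5. *CYSLTR2*, a leukotriene receptor gene and the neighbour 54275 bases after *RB1*, was at a mean of 0.301 CPM in WT and 0.0488 and 0.0225 CPM in 11H1 and 14B5, both under the level that 3 counts give in the deepest library (0.0502 CPM), so no fold is given. *MED4*, a Mediator subunit gene, was higher in both clones (log2FC 0.18 and 0.44). *RB1* itself was not among the genes of this stretch that were called lower.

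**Figure D4:**
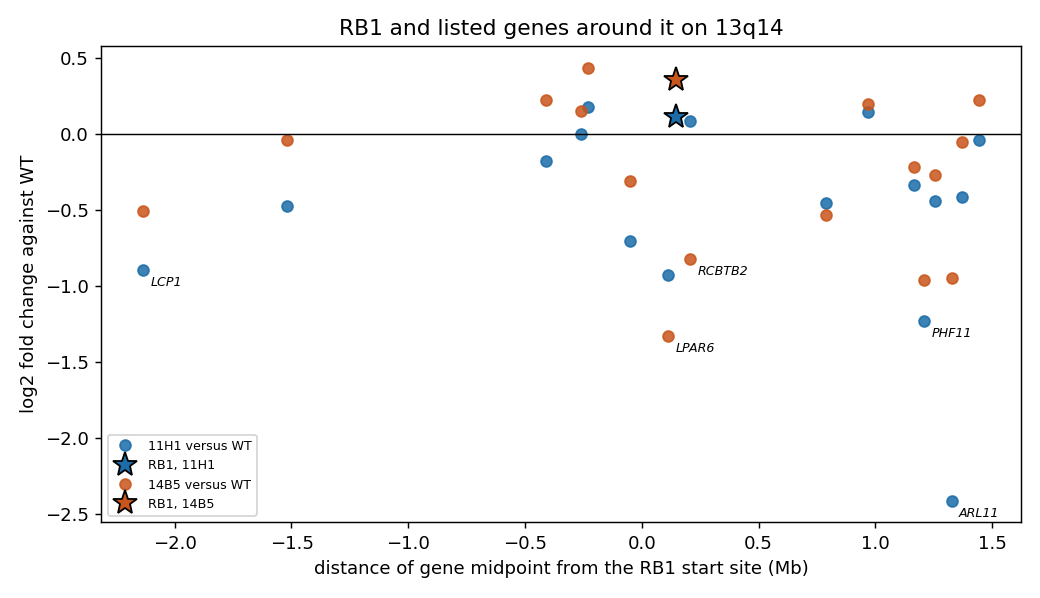
log2 fold change against WT of *RB1* (stars) and of the listed 13q14 genes tested (points), by the distance of each gene's midpoint from the *RB1* start, for 11H1 (blue) and 14B5 (orange). *CYSLTR2* is left out because its level in the clones is under 3 counts. *RB1* lies above 0 in both clones, and *ARL11* in 11H1 and *LPAR6* in 14B5 are the lowest points.

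The DP genes moved in opposite directions in 14B5, and neither was called in 11H1. *TFDP1*, which encodes DP1, the main dimer partner of E2F1 to E2F6, had 74.0, 76.0 and 77.1 CPM in WT. It had 69.4, 73.8 and 68.3 CPM in 11H1 and 92.4, 90.5 and 91.4 CPM in 14B5. The 3 groups did not overlap, with 11H1 lowest and 14B5 highest. The rise in 14B5 was 1.19-fold (log2FC 0.26, SE 0.04, edgeR *P*adj = 6.107e-04). In 11H1 the log2FC of −0.10 did not pass (95% interval −0.20 to 0.01, edgeR *P*adj = 0.0885).

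*TFDP2*, which encodes the second DP protein, had 152, 147 and 154 CPM in WT. It had 154, 148 and 157 CPM in 11H1 and 133, 139 and 137 CPM in 14B5. WT and 11H1 overlapped, and 14B5 was below both. The log2FC was 0.02 in 11H1 (95% interval −0.08 to 0.12, edgeR *P*adj = 0.696), and *TFDP2* fell by 0.16 in 14B5 (SE 0.04, edgeR *P*adj = 0.0107). The call in 14B5 was lost without a filter on low counts (edgeR *P*adj = 0.0775) and without 14B5 library 1 (edgeR *P*adj = 0.0656). Counts of *TFDP1* per count of *TFDP2* were 0.488 to 0.516 in WT, 0.436 to 0.500 in 11H1 and 0.649 to 0.694 in 14B5, so that only 14B5 stood clear of WT.

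The clones were also compared directly, since a call in 1 clone and not the other does not show that they differ. Between 11H1 and 14B5, 7 of the 9 genes differed, against 63.7% of the 16352 genes tested. *E2F2* (log2FC 0.47, edgeR *P*adj = 1.578e-05), *E2F7* (0.29, edgeR *P*adj = 0.00160), *E2F1* (0.19, edgeR *P*adj = 0.0134) and *TFDP2* (0.17, edgeR *P*adj = 0.00493) were higher in 11H1, beside 31.6% of genes. *TFDP1* (−0.37, edgeR *P*adj = 1.937e-05), *RB1* (−0.26, edgeR *P*adj = 0.00578) and *E2F8* (−0.24, edgeR *P*adj = 0.00561) were lower in 11H1, beside 32.1% of genes. The difference for *E2F1* was lost without 14B5 library 2 (edgeR *P*adj = 0.0738). For *E2F3* the difference was 0.08 (95% interval −0.02 to 0.17, edgeR *P*adj = 0.134), and for *E2F6* it was −0.05 (95% interval −0.15 to 0.06, edgeR *P*adj = 0.411). The *E2F3* difference passed under upper quartile scaling (0.12, edgeR *P*adj = 0.0375) and with protein-coding genes only (0.12, edgeR *P*adj = 0.0252).

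With the 6 libraries of both clones pooled as KO against WT (n = 3), which treats libraries of only 2 clones as separate replicates, 6 of the 9 genes were called and all 6 were higher, against 14.3% of 17080 genes called higher, 17.7% called lower and 32.0% called in either direction. *E2F7* rose 3.14-fold (log2FC 1.65, edgeR *P*adj = 1.154e-05), *E2F8* 1.48-fold (0.57, edgeR *P*adj = 0.00207), *E2F2* 1.44-fold (0.52, edgeR *P*adj = 0.0187), *E2F6* 1.25-fold (0.33, edgeR *P*adj = 0.00102), *E2F3* 1.21-fold (0.28, edgeR *P*adj = 0.00426) and *E2F1* 1.19-fold (0.26, edgeR *P*adj = 0.0399). *RB1* (log2FC 0.25), *TFDP1* (0.10) and *TFDP2* (−0.06) did not pass, with edgeR *P*adj of 0.141, 0.550 and 0.490. For *E2F3*, *E2F6*, *E2F7* and *E2F8* the 2-sided exact permutation *P* was 0.0119, the smallest that 6 libraries against 3 can give. The call for *E2F1* was lost in 11 of 19 alternatives, with edgeR *P*adj up to 0.160 without WT library 3, and that for *E2F2* in 4 of 19, among them without each WT library in turn (edgeR *P*adj 0.0592 to 0.0728).

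Most listed targets of E2F were higher in each clone than in WT. Whether these changes follow those of the E2F genes was not tested. Of 52 listed replication, nucleotide and checkpoint genes, 40 were higher and 5 lower in 11H1 (76.9% and 9.62%, beside 31.8% and 32.8% of all genes tested), and 48 were higher and 3 lower in 14B5 (92.3% and 5.77%, beside 24.9% and 28.7%). In both clones 39 of the 52 were higher, beside 14.1% of all genes, and 3 were lower, beside 19.2%, namely *BUB1*, *CCNE1* and *MCM6*. The median log2FC of the 52 was 0.27 in 11H1 and 0.38 in 14B5, beside −0.01 for all genes in each, and values ran from −0.91 to 0.94 in 11H1 and from −0.60 to 0.83 in 14B5. Among the most changed were *PLK4*, a kinase of centriole duplication (log2FC 0.67 and 0.83), and *BUB1*, a spindle checkpoint kinase, which fell by 0.91 and by 0.60. Against each other, 32 of the 52 were lower and 7 higher in 11H1 than in 14B5, with a median of −0.19, beside 32.1% and 31.6% of all genes tested. Among the 45 listed genes with a promoter window, 24 held an E2F letter run (53.3%), beside 3.99% of the 27305 genes with a window. On the RB pathway list described next, 1 of 17 genes with a window held such a run (5.88%). The letters were chosen after windows of the 9 genes had been seen, and the list with earlier results of these data known. How the list was compiled was not tested as a source of that share, which is therefore no independent support for the changes above.

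**Figure D5:**
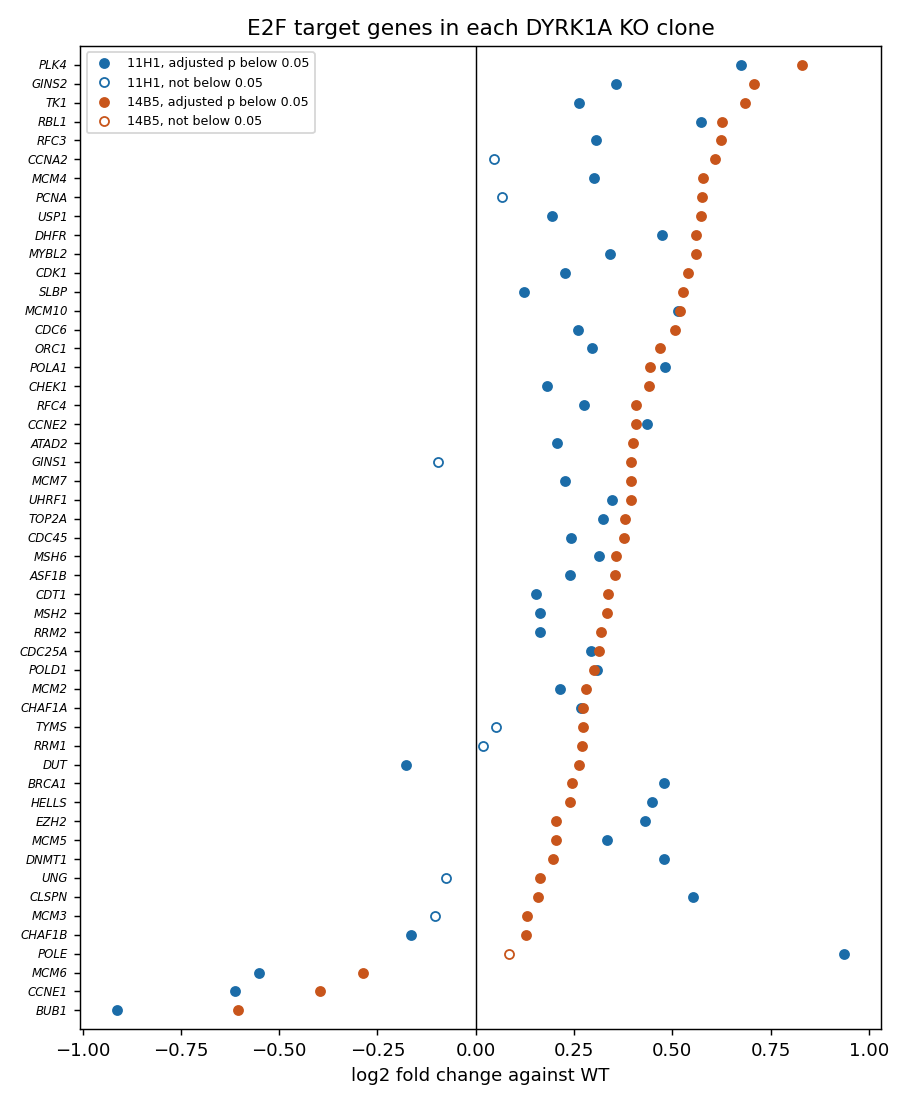
log2 fold change of 51 of the 52 listed E2F target genes in 11H1 (blue) and 14B5 (orange) against WT, in the order of 14B5. Filled points have an edgeR *P*adj below 0.05. Most points lie to the right of 0, and *BUB1*, *CCNE1* and *MCM6* lie to the left in both clones.

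The other genes of the RB pathway did not share 1 direction. Of 23 listed, *CDKN2A* and *CDKN2B*, which encode the INK4 inhibitors p16 and p15, had at most a trace of reads and were not tested. Of the 21 tested, 10 were higher and 7 lower in 11H1 and 12 were higher and 4 lower in 14B5, beside 64.6% and 53.5% of all genes called in either direction, with medians of 0.08 and 0.26, and 4 of the 23 are also on the list of E2F targets.

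Among the CDK inhibitors, *CDKN1A*, which encodes p21, changed most, from a mean of 7.11 CPM in WT to 30.3 CPM in 11H1 and 22.4 CPM in 14B5 (log2FC 2.10 and 1.64, edgeR *P*adj = 4.161e-10 and 4.236e-08). *CDKN1B*, encoding p27 (0.34 and 0.71), and *CDKN2C*, encoding p18 (0.22 and 0.60), were also higher in both clones. *CDKN1C*, encoding p57, fell by 0.93 in 11H1 and by 0.52 in 14B5 on the log2 scale, from a mean of 1.44 CPM.

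Among the pocket proteins and their E2Fs, *RBL1*, encoding p107, was higher in both clones (log2FC 0.57 and 0.63), as was *E2F4*, an E2F of DREAM (0.31 and 0.31). *E2F5*, the other E2F of DREAM, had log2FC of 0.06 and 0.12 and did not pass (edgeR *P*adj = 0.470 and 0.197). *RBL2*, encoding p130, fell by 0.24 in 11H1 and had a log2FC of −0.02 in 14B5 (edgeR *P*adj = 0.820), and it was lower in 11H1 than in 14B5 (−0.24, edgeR *P*adj = 8.773e-04).

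The cyclins and kinases divided. *CDK2* (log2FC 0.40 and 0.47) and *CCNE2* (0.44 and 0.41) rose in both clones. *CCNE1* fell by 0.61 and by 0.40, *CCND3* by 0.20 and by 0.33, and *CCND1* by 0.24 and by 0.44. *CDK4* (0.42) and *CCNA2* (0.61) rose in 14B5 and had −0.02 and 0.05 in 11H1 (edgeR *P*adj = 0.768 and 0.439), and the direct difference of 11H1 from 14B5 was −0.45 and −0.58 (edgeR *P*adj = 1.845e-06 and 2.078e-06). *CCND2* (0.27) rose and *CDK6* (−0.26) fell in 11H1, and their values in 14B5, 0.23 and −0.19, did not pass (edgeR *P*adj = 0.0844 and 0.0947). The direct difference of 11H1 from 14B5 did not pass for either, at 0.03 for *CCND2* and −0.08 for *CDK6* (edgeR *P*adj = 0.835 and 0.22). Of the ubiquitin ligase genes that act on cell cycle proteins, *FZR1* (0.32 and 0.37) and *CCNF* (0.25 and 0.26) rose in both clones, and *SKP2* fell by 0.13 in 11H1 and rose by 0.20 in 14B5.

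The neighbours of the other genes on their chromosomes had their own values. The nearest expressed protein-coding gene on 1 side of *E2F7* was *CSRP2*, 142187 bases away, at −0.19 in 11H1 and −0.45 in 14B5 (edgeR *P*adj = 0.468 and 0.110). On the other side it was *SYT1*, 1798413 bases away, at −0.39 and 0.01 (edgeR *P*adj = 0.0535 and 0.950). *MBOAT1*, before *E2F3*, fell by 0.69 and by 0.70, whereas *CDKAL1* after it had −0.09 and 0.05 and did not pass. *TMCO3*, before *TFDP1*, fell by 0.20 in 11H1 and rose by 0.46 in 14B5 (edgeR *P*adj = 0.0162 and 1.980e-04). *ZDHHC13*, before *E2F8* (0.23 and 0.31), *GREB1*, after *E2F6* (0.75 and 0.15), and *GK5*, after *TFDP2* (0.33 and 0.21), were higher in both clones. No neighbour of *E2F1* or *E2F2* was called in both clones.

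Profiles across the 9 libraries were matched among the 10358 protein-coding genes whose mean reached 5 CPM. Such likeness mostly follows the 3 groups and is a description only. Among the nearest to *E2F7* were *C5AR1* (Pearson's *r* = 0.997) and *ZNF440*, and nearest to *E2F8* were *CCP110* (*r* = 0.995), *KIAA1143* and *PRKX*. *E2F1* was nearest to *TRAF4* (*r* = 0.987), *LETM1* and *TAF6L*, *E2F2* to *TBC1D20* (*r* = 0.992), *NLRP1* and *USP49*, and *E2F3* to *TXLNG* (*r* = 0.992), *TPP1* and *SDAD1*. *E2F6* was nearest to *TRIP4* (*r* = 0.992), *FNTA* and *RASL11A*. *RB1* was nearest to *TIA1* (*r* = 0.984), *ERBIN* and *RSBN1L*, *TFDP1* to *C1R* (*r* = 0.990), *RNF139* and *UNG*, and *TFDP2* to *PRDM1* (*r* = 0.972), *HYOU1* and *ANKS1A*.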

How the data were processed

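RNA-seq of 9 SET2 libraries was analysed. Gene-level expected counts from RSEM were deposited by the authors without normalization, and the submitters' processing notes name STAR 2.7.9a, Picard, RSEM and GRCh38. The annotation release is not given in the sources used here. The paper describes a stranded mRNA kit in its methods and gives 5 KO libraries elsewhere, whereas the labels name a different kit and 6 KO libraries. All 6 were used. Of 60754 entries, 92 spike-in controls were at 0 and were left out.

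Expected counts were rounded and tested with edgeR 4.0.16 in R 4.3.3 (TMM, filterByExpr, quasi-likelihood F test, Benjamini–Hochberg adjustment over all genes tested, threshold 0.05). An exact permutation test (2-sided) was added for single genes, with 0.1 as its smallest p for groups of 3. The smallest and largest libraries place 3 counts at 0.0913 and 0.0502 CPM, which covers counting error only. Positions come from GENCODE v29, which placed 58528 genes (96.5%), and promoter windows from RefSeq, found for 8 of the 9 genes. The *RB1* window, chr13:48476200-48476499, lies at a start inside the gene, so the promoter at its first start was not examined. The genes and lists were chosen with earlier results of these data known.

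Genes named were the 9 genes, *DYRK1A*, the 3 genes of each list called in both clones with the largest mean log2FC, RB pathway genes called in either clone, the 3 most alike genes and the nearest expressed neighbours. *MED4*, *CCNE1*, *MCM6*, *RCBTB2* and the germline genes at 0 were named after their values were seen. *E2F5*, *CDKN2A*, *CDKN2B*, *STAG3*, *TDRKH* and *SYCE2* are named in the text but also fall outside that rule. Some genes that the rule covers are not reported here. Alternatives were DESeq2 1.42.0 size factors and Wald test, upper quartile scaling, no mitochondrial genes, limma-voom (limma 3.58.1) on unrounded values, other filters, a blocking term for the replicate number, 1 fit over the 3 groups, restriction to protein-coding genes, and each library left out. The edgeR comparisons were tested on simulated counts. Far fewer genes changed there than were called here, and by larger steps than most of the 9 genes. That test therefore does not cover the setting of these data.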

Additional observations from a re-analysis of the deposited data

Results flagged for a closer look

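Of the 9 genes, 7 were singled out because the direct test between the clones passed. The log2FC of 11H1 against 14B5 was 0.19 for *E2F1*, 0.47 for *E2F2*, 0.29 for *E2F7*, −0.24 for *E2F8*, −0.26 for *RB1*, −0.37 for *TFDP1* and 0.17 for *TFDP2*. All 3 libraries of 11H1 lay on 1 side of all 3 libraries of 14B5 for each of the 7 and for *E2F3*, which was not called, as for 68.7% of all genes tested. *E2F7* and *E2F8*, the atypical pair, differed in opposite directions, as did *TFDP1* and *TFDP2*, the DP pair.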

How the results depend on the processing

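Of 36 values (9 genes in 4 comparisons), 26 kept their direction and their side of the threshold in every alternative, and *E2F3*, *E2F6*, *E2F7* and *E2F8* did so in each comparison with WT. *TFDP2* in 11H1 against WT changed sign without a filter on low counts (log2FC −0.0013) and without WT library 2 (−0.0051), with a range of −0.0051 to 0.0484 when each library was left out, all beside an interval that spans 0. Genes called in KO versus WT numbered 5471 and became 10245 when all 3 groups were fitted at once, a fit that takes the spread within each clone in place of that over both; there *RB1* in KO also passed (0.24, edgeR *P*adj = 0.0196). Leaving out each library gave 3677 to 5531 calls in KO against WT, 9685 to 11091 in 11H1, 7597 to 9040 in 14B5 and 9193 to 10204 between the clones, and of the 9 genes 4 to 6, 6 to 7, 6 to 8 and 6 to 7. Libraries with the same replicate number did not deviate together (correlations from −0.145 to 0.0581). Whether a number marks a shared culture or preparation is not given in the labels and was not tested. With the replicate block, calls numbered 10710 in 11H1 versus WT, 7529 in 14B5 versus WT, 10099 between the clones and 3937 in KO versus WT, and *TFDP2* in 14B5 and *E2F1* and *E2F2* in KO no longer passed (edgeR *P*adj = 0.0569, 0.0980 and 0.0518). Scaling by other methods moved the median of all genes by at most 0.0369 on the log2 scale and a log2FC of the 9 genes by at most 0.0372. Depth limits *CYSLTR2* and most of the germline genes rather than the 9 genes, which had at least 155 counts in every library.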
